A study of Drosophila melanogaster with 3 samples.

Results

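The nuclear genes for subunits of the oxidative phosphorylation complexes were examined for binding of the transcription factor Scalloped (sd) in whole *Drosophila melanogaster* embryos. Members were the protein-coding genes on the nuclear chromosome arms whose symbols start with ND-, UQCR-, COX and a digit, or ATPsyn in the Ensembl BDGP6 annotation, and 80 of 13945 protein-coding genes on 2L, 2R, 3L, 3R, 4 and X met this rule. They comprised 40 genes of complex I, 9 of complex III, 16 of complex IV and 15 of complex V. In 21 of the 80, the symbol marks a duplicate of another subunit gene (an L, with or without a digit, at its end). The data were chromatin immunoprecipitation and sequencing (ChIP-seq) peak lists from 3 biological replicates of a single group, embryos of pooled sexes aged 4 to 20 h from a transgenic line in which a C-terminal GFP is fused to sd, precipitated with an antibody against GFP. There was no second genotype, stage or treatment, the control alignment behind the peaks was not analysed here, and whole embryos give no value for single cell types. The sources used here did not give the promoter of the insertion or its copy number. A gene was called when a summit of the authors' list of reproducible peaks, thresholded on the irreproducible discovery rate (IDR), lay at most 1000 bp from any of its transcription start sites (TSSs).

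Oxidative phosphorylation passes electrons from NADH through complex I and from succinate through complex II to complex III, cytochrome c and complex IV, and complex V makes ATP from the proton gradient this builds. A few subunits of complexes I, III, IV and V are encoded in mitochondrial DNA, and nuclear genes encode all the others, so the complexes need products of both genomes. Scalloped is the TEA-domain (TEAD family) DNA-binding protein of the fly and the partner of Yorkie, the coactivator at the end of the Hippo growth-control pathway, and TEA-domain proteins bind the letters CATTCC. Many fly genes for subunits of these complexes have a paralogue that is expressed mainly in the testis.

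Of the 80 members, 5 are shown here by the sequence at their strongest IDR summit. Each run is from the RefSeq Release 6 genome (dm6), 5′ to 3′ on the strand of the gene, covers up to 60 bp on each side of the summit, and leaves out every annotated exon. ND-15 (chr2L:114552-114672, + strand) and ND-B8 (chr2L:4454454-4454567, + strand) are shown because theirs were the strongest summits of members that held a TEA core within 100 bp. In both, the capitals GGAATG are CATTCC read on the other strand, and the second capitals in ND-15, TATCGATA, are the DNA replication-related element (DRE), the site of the factor DREF. ND-SGDH (chr3L:12138592-12138712, − strand) and ND-MNLL (chrX:7893803-7893923, − strand) hold a form of the nuclear respiratory gene element described for Drosophila genes of this pathway, in capitals. COX7AL2 (chr2L:2198811-2198931, − strand) is shown because it had the strongest summit of all members, and no searched motif lay within 100 bp of it, so it has no capitals.
ND-15: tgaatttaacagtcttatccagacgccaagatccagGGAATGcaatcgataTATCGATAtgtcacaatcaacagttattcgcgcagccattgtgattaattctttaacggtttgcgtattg
ND-B8: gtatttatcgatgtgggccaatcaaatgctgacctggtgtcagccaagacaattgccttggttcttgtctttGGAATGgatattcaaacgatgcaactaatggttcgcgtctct
ND-SGDH: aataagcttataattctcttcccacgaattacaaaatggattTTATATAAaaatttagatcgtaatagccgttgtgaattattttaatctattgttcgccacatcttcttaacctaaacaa
ND-MNLL: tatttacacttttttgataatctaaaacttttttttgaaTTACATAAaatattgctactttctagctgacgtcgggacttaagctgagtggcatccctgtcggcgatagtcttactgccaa
COX7AL2: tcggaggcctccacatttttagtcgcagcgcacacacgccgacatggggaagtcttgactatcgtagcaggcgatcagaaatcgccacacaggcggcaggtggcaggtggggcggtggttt

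The IDR list held 10553 peaks, ranked here from 1 (highest signal value, the authors' score of a peak) to 10553, and each replicate list and the list called on pooled replicates held 30000. The read depth of the replicates is unknown, since the files give no read totals. Replicate 2 stood apart at promoters. Among other genes with no IDR summit, 903 had a summit within 1000 bp of a TSS in replicate 2 and in no other replicate, against 125 for replicate 1 and 108 for replicate 3. Values that rest on replicate 2 are therefore given with the other replicates beside them.

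Scalloped summits, counted up to 1000 bp from a TSS, were present at 22 of the 80 members, which is 27.5% (95% exact Clopper-Pearson interval 18.1 to 38.6). The background over all 13945 protein-coding genes was 30.5%, and 4227 of the 13865 other genes had a summit. Members were short, with a median length of 1091.5 bp against 2177 bp for other genes, and 57.5% of members had 1 annotated TSS against 73.6% of other genes. Weighted to the same classes of gene length and TSS number, the other genes had a share of 26.8%. The difference was 0.695 percentage points, and the weighted share lay inside the interval of the members' share. That interval is wide, so these values do not show that the shares are equal. The total also joins members with differences of opposite sign, 6.20 points for those that are not duplicates and −14.8 points for duplicates.

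The share depended on the number of TSSs among members and other genes alike. Of members with 1 TSS, 8 of 46 (17.4%) had a summit, against 22.7% of other genes. This class held most of the duplicates, of which 90.5% had 1 TSS. No duplicate in it had a summit, since the only duplicate called, COX7AL2, had 3 TSSs. Of members with 2 TSSs, 9 of 29 (31.0%) had a summit, against 44.6% of other genes. All 5 members with 3 or more TSSs (ND-15, ND-ASHI, ND-B12, ATPsynC and COX7AL2) had a summit, against 68.9% of other genes. The shares in these classes were not weighted for gene length. By arm, members had 5 of 16 on 2L, 3 of 15 on 2R, 7 of 19 on 3L, 3 of 16 on 3R, 0 of 2 on 4 and 4 of 12 on X, and the shares of other genes were 29.0, 33.4, 32.0, 30.0, 8.97 and 28.2%.

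Duplicates and other members had different shares. Of the 59 members that are not duplicates, 21 had a summit, which is 35.6% (interval 23.6 to 49.1) against 29.4% of other genes of like length and TSS number. Of the 21 duplicates, 1 had a summit, which is 4.76% (interval 0.120 to 23.8) against 19.5% of other genes of like length and TSS number. Both weighted values of the other genes lay inside the members' intervals. The duplicates were shorter still, with a median of 703 bp, and 90.5% of them had 1 TSS, which is why each set is read against genes of its own size. The other genes weighted to the 2 sets differed by less than the members did.

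Complex I had a summit at 11 of 40 genes (27.5%, interval 14.6 to 43.9), against 27.8% of other genes of like length and TSS number. Complex III had 3 of 9 (33.3%, interval 7.49 to 70.1), against 22.7%. Complex IV had 5 of 16 (31.25%, interval 11.0 to 58.7), against 25.2%. Complex V had 3 of 15 (20.0%, interval 4.33 to 48.1), against 28.4%. The weighted share of other genes lay inside the interval of each complex, and with 9 to 40 genes each the intervals are wide. Without the duplicates, complex I had 11 of 34 (interval 17.4 to 50.5), against 28.8% of other genes of like length and TSS number, and complex III had 3 of 6 (interval 11.8 to 88.2), against 27.5%. Complex IV had 4 of 8 (interval 15.7 to 84.3), against 28.6%, and complex V had 3 of 11 (interval 6.02 to 61.0), against 32.9%, so these weighted shares also lay inside the intervals.

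**Figure D1:**
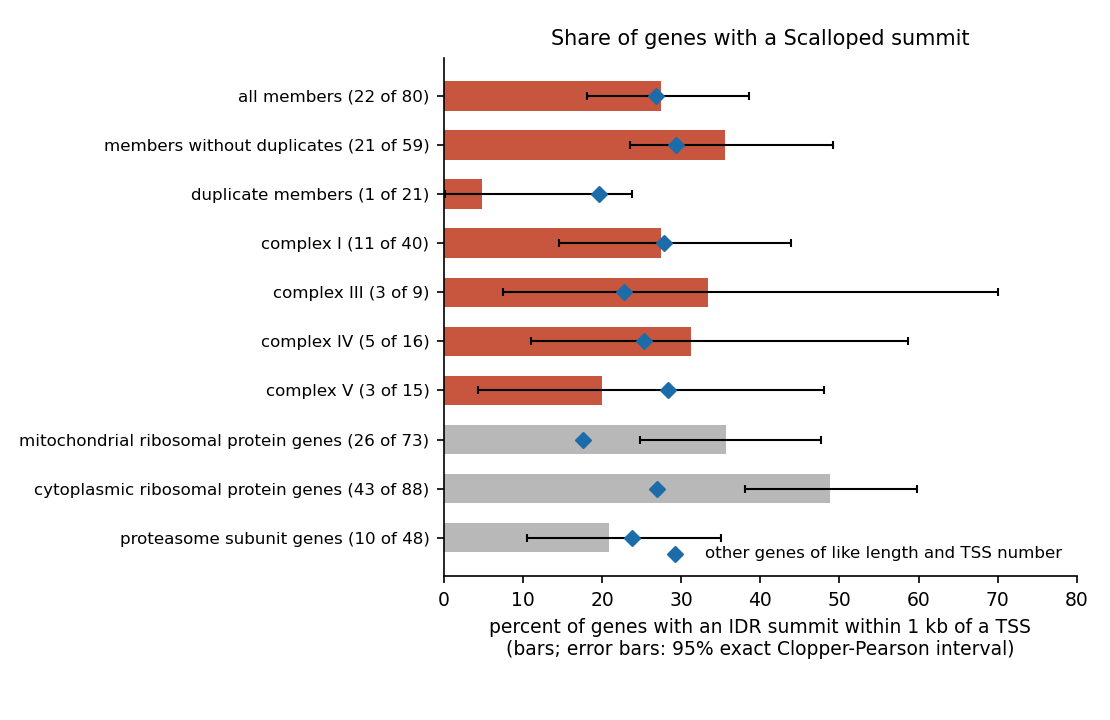
Percent of genes (x axis) with an IDR summit at most 1000 bp from a TSS, as bars, for the members by kind and by complex and, in grey, for 3 other families; error bars are 95% exact Clopper-Pearson intervals and diamonds the share of other genes of like length and TSS number. The diamond lies inside the interval in all 7 groups of members and outside it for both families of ribosomal protein genes.

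Within complex I the summits lay at genes of accessory subunits, which surround and stabilise the catalytic core. None of the 7 nuclear core subunits, the conserved part that passes electrons from NADH to ubiquinone (ND-75, ND-51, ND-49, ND-30, ND-24, ND-23 and ND-20), had a summit, and a count of 0 of 7 allows up to 41.0% by the exact interval. Other genes of like length and TSS number had 32.2%. Of the 27 accessory subunits that are not duplicates, 11 had a summit (40.7%, interval 22.4 to 61.2), against 27.9% of other genes of like length and TSS number. This division was made after the values were seen and both weighted values lay inside the intervals. Of the core genes, ND-51, for the subunit that carries the flavin, had a summit at rank 1956 of replicate 2 and none in replicates 1 and 3. ND-75, the largest subunit, had a weak summit at rank 13364 of the pooled list, with ranks 15719, 13511 and 14443 in replicates 1, 2 and 3.

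ND-ASHI, the fly counterpart of the accessory subunit NDUFB8, had the strongest complex I summit. Its summit ranked 1465 in the IDR list with a signal value of 1230.11, and 1437, 1703 and 1490 in replicates 1, 2 and 3. The 3 replicates gave it nearly the same place. The peak spans chrX:6679093-6679604, with its summit at 6679355, 237 bp upstream of the nearest ND-ASHI TSS. It lies in an intron of Fum1, the fumarase gene of the citric acid cycle, and is also the strongest summit of Fum1, so the same peak counts for both genes.

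ND-MWFE, the counterpart of NDUFA1 in the membrane arm, ranked 2297 with a signal of 961.61, and 3363, 1570 and 2384 in replicates 1, 2 and 3. The summit lies 141 bp upstream of its TSS but 80 bp from a TSS of TppII, the gene of a large cytosolic peptidase. ND-ACP, the mitochondrial acyl carrier protein, which is both a complex I subunit and a part of mitochondrial fatty acid synthesis, ranked 3271 with a signal of 775.014, and 2404, 5606 and 3491 in replicates 1, 2 and 3. Its summit lay 528 bp upstream, in the 3′ UTR of Myo61F, with no other protein-coding TSS within 1000 bp. Replicate 2 put ND-MWFE highest of the 3 replicates and ND-ACP lowest.

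ND-15, the counterpart of NDUFS5, had its strongest summit 114 bp upstream of its TSS, at rank 4793 of the IDR list with a signal of 596.799. It ranked 5556 in replicate 1 and 3175 in replicate 2, and replicate 3 had no summit within 100 bp of it. This was the only strongest summit of a member not found in all 3 replicates. The annotated gene spans 41305 bp, and a second summit at rank 5309 lay 773 bp from another of its TSSs but 41 bp from a TSS of CG3436. In replicate 3 that second summit also had no match, and the best summit within 1000 bp of any ND-15 TSS ranked 18922.

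The other 7 complex I genes with a summit were ND-SGDH, ND-B8, ND-39, ND-MNLL, ND-13A, ND-13B and ND-B12, all accessory subunits, at ranks 5366 to 10077 of the IDR list. ND-SGDH was first among them, with ranks 8470, 3383 and 6353 in replicates 1, 2 and 3, and its summit lay 68 bp upstream of its TSS. ND-B8 ranked 5859, with 10188, 4072 and 5914 in replicates 1, 2 and 3, and its summit lay 54 bp from a TSS of Secp43 and 119 bp from its own. ND-B12 was the weakest member called, at rank 10077 and a signal of 321.921, close to the lowest value in the list, 307.916.

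All 3 complex III genes with a summit encode structural subunits of the cytochrome bc1 complex. UQCR-Q, the counterpart of the small subunit UQCRQ, ranked 3322 with a signal of 766.057, and 6934, 2403 and 2804 in replicates 1, 2 and 3. UQCR-C2, a core protein that faces the matrix, ranked 3866 with a signal of 693.661, and 4845, 3028 and 4231. UQCR-14 ranked 7012 with a signal of 440.838, and 8121, 6331 and 8157. The 3 summits lay 28, 35 and 31 bp upstream of the nearest own TSS, and in each case replicate 2 gave the best rank. For UQCR-Q and UQCR-C2 that TSS is internal, and the summit lies inside the gene, in its own 5′ UTR. UQCR-C1, the partner core protein of UQCR-C2, had no IDR summit and a summit at rank 6773 of replicate 2 alone.

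COX7AL2, a duplicate of the complex IV subunit gene COX7A, had the strongest summit of all members. It ranked 246 in the IDR list with a signal of 2922.26, and 216, 275 and 281 in replicates 1, 2 and 3, and it was the only member in the first 10% of the list (rank 1055 or better). The peak spans chr2L:2198464-2199510, with its summit at 2198871, 959 bp upstream of the most upstream COX7AL2 TSS, which is just inside the window of 1000 bp. The locus held 3 more summits within 1000 bp of a COX7AL2 TSS, at IDR ranks 283, 800 and 2296, all in its introns. The summit at rank 283 ranked 297, 415 and 236 in replicates 1, 2 and 3, and the one at 800 ranked 722, 901 and 872. All 3 replicates thus placed the first 3 summits in the first 1000 of 30000. No summit of the 4 had another protein-coding TSS within 1000 bp, and none lay closer than 567 bp to a COX7AL2 TSS, so with a window of 500 bp the gene was no longer called.

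The other complex IV genes with a summit were COX6B, COX5B, COX7B and COX7C, which encode small subunits around the catalytic core made from mitochondrial DNA. COX6B ranked 2842 with a signal of 841.641, and 2879, 2325 and 3837 in replicates 1, 2 and 3. Its summit lay 130 bp from its TSS and equally far from a TSS of CG18809, and the TSSs of CG33932 and Rpp20 were also within 1000 bp. COX5B ranked 4571 with a signal of 615.53, and 5026, 3091 and 6218, with its summit 58 bp upstream. COX7B ranked 5485 with a signal of 536.637, and 7209, 4182 and 7056, with its summit 97 bp upstream. COX7C was the weakest, at rank 8942, and its summit lay 59 bp from a TSS of oys, a gene for a lysophospholipid acyltransferase. COX5A, which had no IDR summit, had summits at rank 3999 of replicate 2 and 6116 of replicate 3 and none in replicate 1 or in the pooled list. COX4 and COX8 had none in any list.

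The 3 complex V genes with a summit were ATPsynE, ATPsynC and ATPsynD. ATPsynE, the counterpart of the membrane subunit e, ranked 2161 with a signal of 996.197, and 4709, 2585 and 2132 in replicates 1, 2 and 3. The summit lies 258 bp upstream of ATPsynE and at the TSS of Afti (0 bp), on the opposite strand. Each replicate also had a stronger summit within 1000 bp of an ATPsynE TSS, at ranks 735, 581 and 618, more than 100 bp from the IDR summit. ATPsynC, the subunit of the rotating c-ring, ranked 3428 with a signal of 750.699, and 3796, 2850 and 3719, with its summit 650 bp downstream of a TSS in an intron and another, at rank 6667, 10 bp downstream of a TSS. ATPsynD, subunit d of the peripheral stalk, ranked 5354 with a signal of 546.94, and 8525, 3300 and 5749, with its summit 6 bp upstream. ATPsynbeta, the catalytic subunit, ATPsyngamma, the central shaft, and ATPsynB, ATPsynF and ATPsynO had no summit within 1000 bp in any list.

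**Figure D2:**
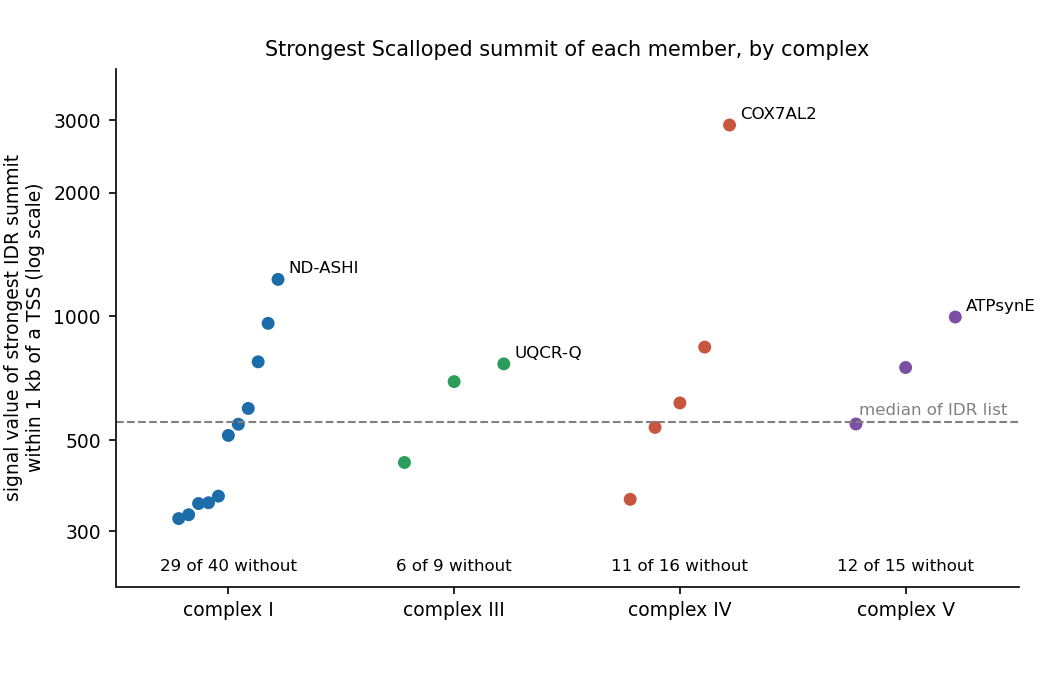
Signal value (y axis, log scale, the authors' score) of the strongest IDR summit at most 1000 bp from a TSS for the 22 members with a summit, 1 point per gene, by complex; the dashed line is the median of all IDR peaks, 552.716. COX7AL2 at 2922.26 stands above all other members, and 11 points lie above the line.

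The members' summits were of ordinary or low strength. The strongest summit of the 22 members had a median IDR rank of 5073.5, against 3711 for the 4227 other genes with a summit. The median signal was 572 for members and 712 for other genes. In the first 10% of the list were 4.55% of the members' strongest summits (1 of 22) and 18.1% of those of other genes. In the first 50% of the list were 50% of members' summits and 65.8% of those of other genes. These ranks, signals and shares were not weighted for gene length or TSS number, in which members and other genes differ. With peaks at or above the median signal alone, 11 members were called, or 13.75%, against 16.8% of other genes of like length and TSS number and a background of 20.0%. Most called genes had a single summit, 68.2% of members and 68.9% of other genes.

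Most member summits were matched in every replicate but ranked unevenly between replicates. The authors chose the IDR list for agreement between replicates, so such matches were partly set by that choice. Of the 32 distinct summits at members, 30 (93.8%) were matched within 100 bp by every replicate, against 89.9% of the 4770 other IDR summits near a protein-coding TSS. Counted through summits found in all 3 replicates, 21 of the 80 members were called, against 24.3% of other genes of like length and TSS number and a background of 28.0%. These matches used all 30000 peaks of each replicate. With the first 10553 peaks of each replicate, 15 members remained, and the share of other genes was not computed for that setting. Replicate 2 gave the best rank for 18 of the 30 member summits (60%), against 38.0% of other summits near a TSS. The median rank of the member summits was 7499.5, 3923 and 6704.5 in replicates 1, 2 and 3, against 4816, 4653 and 4796.5 for the other summits near a TSS. Member summits thus stood higher in replicate 2 than in the others, which is also the replicate with the most promoter summits of its own; the part of that library in the ranks was not tested.

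**Figure D3:**
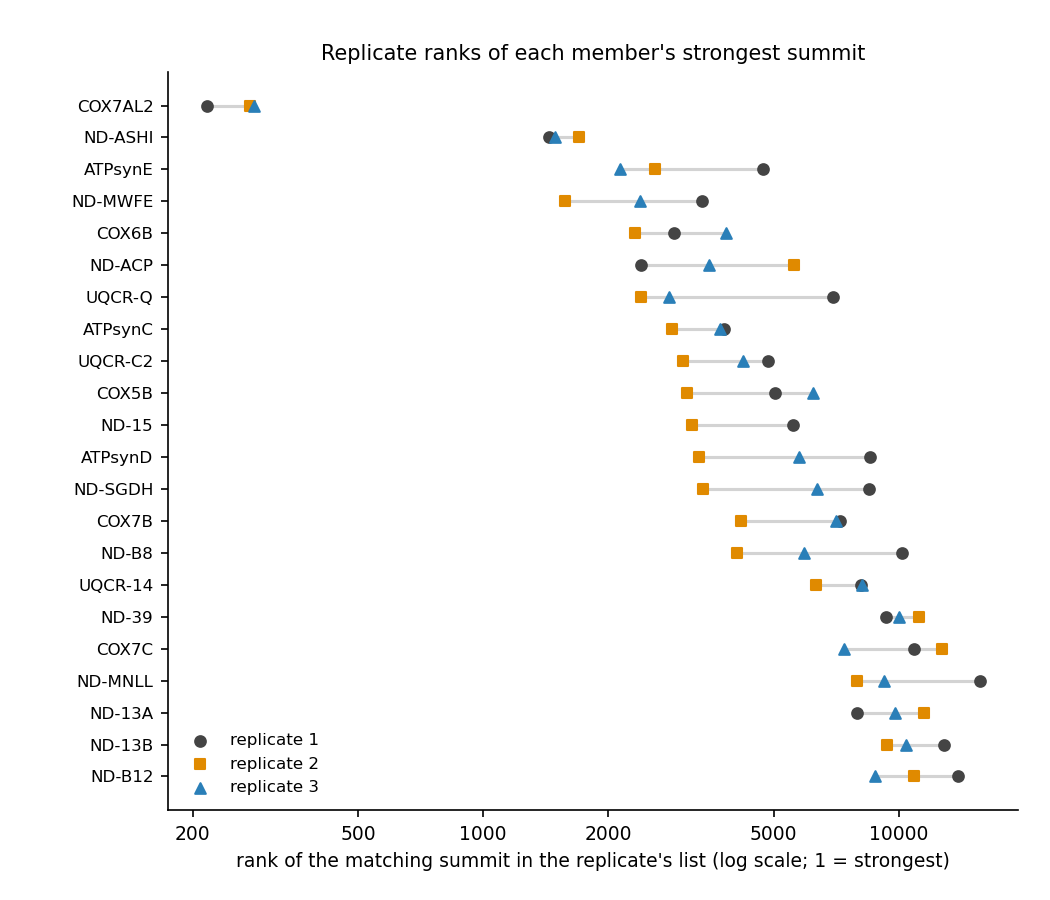
Rank in each replicate's list of 30000 peaks (x axis, log scale, 1 is the strongest) of the summit within 100 bp of each of the 22 members' strongest IDR summits, ordered down the page from COX7AL2; symbols mark replicates 1, 2 and 3 and a grey line joins them. Replicate 2 is leftmost for 13 of the 21 genes found in all 3 replicates, and ND-15 has no replicate 3 symbol.

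Members were called about as often in each replicate's own list. Among the first 10553 peaks of replicates 1, 2 and 3, members with a summit within 1000 bp numbered 18, 24 and 23, where the background shares over all genes were 28.7, 35.3 and 30.6%. As a mean over replicates, 27.1 ± 4.02% of members were called (SD, n = 3), against 27.3 ± 3.04% of other genes of like length and TSS number. The difference of −0.253 ± 2.22 points was smaller than its spread between replicates.

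Where called, members had their summit close to the start of the gene. The strongest summit lay a median of 105.5 bp from the nearest own TSS in members and 180 bp in other genes with a summit. Distances were not weighted for gene length or TSS number, in which members and other genes differ. It lay within 100 bp in 11 of the 22 members (50%) and in 30.8% of other genes, and within 200 bp in 68.2% of members and 54.0% of other genes. It was upstream of the nearest own TSS in 17 members (77.3%) and in 71.7% of other genes. Among the 17, UQCR-Q and UQCR-C2 had it inside the gene, upstream of an internal TSS. The bin from 200 bp upstream to the TSS held 12 members (54.5%) and 38.9% of other genes.

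**Figure D4:**
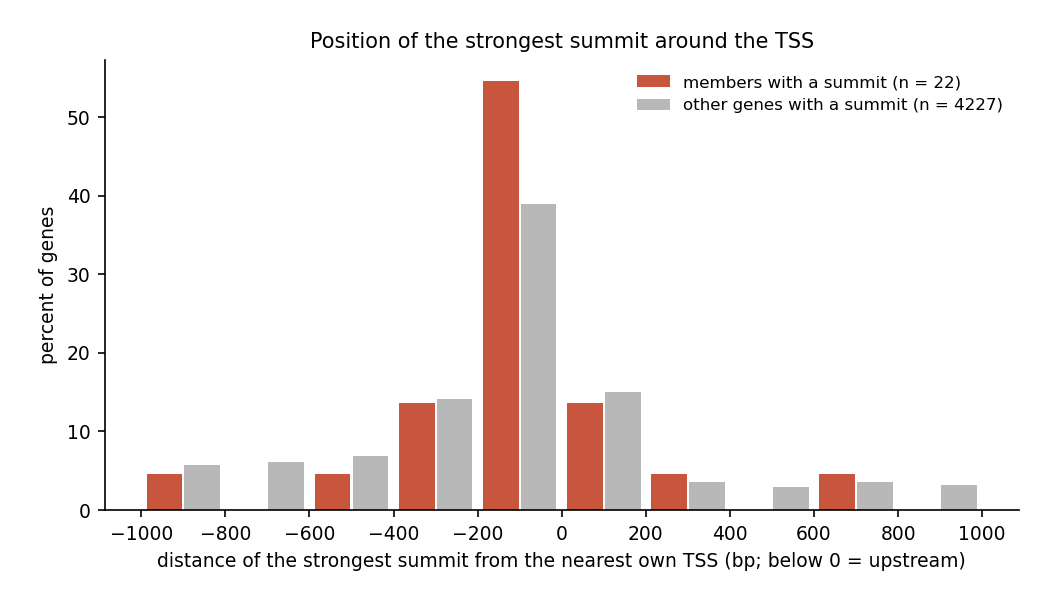
Percent of genes (y axis) by the signed distance in bp of the strongest IDR summit from the nearest own TSS (x axis, 200 bp bins, negative is upstream), for the 22 members with a summit in red and 4227 other genes with a summit in grey. The bin just upstream of the TSS is the highest in both, with 54.5% of members and 38.9% of other genes.

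Many members share their promoter region with a neighbour, so a summit could not always be assigned. Another protein-coding gene had a TSS within 1000 bp of a member's TSS for 48 of 80 members (60%), against 42.8% of other genes. Of those 48 members, 17 had a summit (35.4%), against 38.8% of other genes with such a neighbour. Of the 32 members without such a neighbour, 5 had a summit (15.6%), against 24.3% of other genes. All 5 were among the 17 that are not duplicates (29.4%), and 0 of the 15 duplicates had one. With such a neighbour, 16 of 42 members that are not duplicates had a summit (38.1%), and 1 of 6 duplicates. None of these shares was weighted for gene length or TSS number. The strongest summit was nearest to the member's own TSS, or equally near, in 18 of 22 cases. In the other 4 (ATPsynE, ND-MWFE, ND-B8 and COX7C) it was nearer to another gene. Counting a summit only for the gene with the nearest TSS left 18 members, or 22.5%, against 19.3% of other genes of like length and TSS number and a background of 24.3%.

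With other windows the members' share differed from that of other genes of like length and TSS number by at most 2.64 points. Within 500 bp of a TSS, 20 members were called (25.0%), against 22.4% of other genes of like length and TSS number and a background of 25.6%, and the members lost were COX7AL2 and ND-ACP. Within 2000 bp, 29 members were called (36.25%), against 34.8% and a background of 37.0%. Anywhere in the gene or within 2000 bp of it, 33 were called (41.25%), against 39.1% and a background of 44.0%. Just outside the window of 1000 bp, the nearest summits lay 1050 bp from ATPsynCF6, 1187 bp from ND-B17.2, 1259 bp from UQCR-11L and 1283 bp from ND-B14.7, and just inside it the strongest COX7AL2 summit lay at 959 bp.

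The 58 members without an IDR summit included weaker peaks. In the whole pooled list, 31 members had a summit within 1000 bp, against 38.3% of other genes of like length and TSS number and a background of 42.7%. The 9 that this added were ATPsyndelta at pooled rank 11201, ND-B22 at 11470, ND-B14.5A at 12986, ATPsynCF6 at 13193, ND-75 at 13364, ND-B17.2 at 14095, ND-B16.6 at 15010, UQCR-6.4L at 15265 and ND-B14.5AL at 27163. All of these but ND-B14.5AL also had a summit within 1000 bp in each of the 3 replicates. Such members were 13.8% of the 58, against 13.5% of other genes without an IDR summit. No summit in any list lay within 1000 bp of 39 of the 58 members. The same held for 6632 of the 9638 other genes without an IDR summit, a similar share.

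A further 9 of the 58 had a summit in 1 replicate only, and 8 of these were in replicate 2. Those 8 were ND-51 at rank 1956, ND-PDSW at 5831, UQCR-C1 at 6773, COX7A at 7286, COX7AL at 12333, ND-AGGG at 14874, ATPsynG at 21394 and ND-51L1 at 29150, and COX7CL at 24333 was in replicate 3 alone. Members with a summit in replicate 2 alone were 13.8% of the 58, against 9.37% of other genes without an IDR summit, and the same replicate led in both groups. ND-51, COX7A, UQCR-C1 and ND-PDSW lay within the first 10553 peaks of that replicate.

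The 39 members with no summit in any list included the complex I genes ND-18, ND-19, ND-20, ND-23, ND-24, ND-30, ND-42, ND-49, ND-B14, ND-B14.5B, ND-B14.7, ND-B15, ND-B17, ND-B18 and ND-MLRQ and the complex I duplicates ND-20L, ND-24L, ND-49L and ND-51L2. In complex III they were UQCR-11, UQCR-6.4, UQCR-11L and UQCR-14L. UQCR-11 and ND-MLRQ lie on 3L in stretches without any IDR summit, the nearest being 2.18e+06 and 394203 bp away. The same holds for ND-AGGG, named above, at 2.03e+06 bp. In complex IV they were COX4, COX8, COX4L, COX5BL, COX6AL, COX6AL2 and COX6CL. In complex V they were ATPsynB, ATPsynF, ATPsynO, ATPsynbeta, ATPsyngamma, ATPsynCF6L, ATPsynGL, ATPsynbetaL and ATPsynepsilonL.

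The share of member summits with the letters bound by TEA-domain proteins was not above that of other summits. CATTCC, searched on both strands as an exact match, lay within 100 bp of 4 of the 32 member summits (12.5%, interval 3.51 to 29.0), against 788 of 4770 other summits near a protein-coding TSS (16.5%). The 4 were the strongest summits of ND-15 and ND-B8, printed above, and second summits of ATPsynD and COX6B. The related letters AATTCC lay at 3 member summits (9.38%) against 22.7% of others, and CTACTC, a permutation of CATTCC used as a control, at 2 (6.25%) against 3.90%. Within 200 bp, CATTCC was at 5 member summits (15.6%) against 23.2% of others, AATTCC at 8 (25%) against 32.6%, and CTACTC at 2 (6.25%) against 8.36%. Among the first 10553 peaks of replicates 1, 2 and 3, the share of member summits with CATTCC was 11.1, 8.57 and 6.25%. The share of other summits was not computed for these lists, so the 16.5% from the IDR list is no measure for them.

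The letters of core promoter motif 1, GGTCACAC, which the fly factor M1BP binds, were found at 5 of 32 member summits within 100 bp (15.6%, interval 5.28 to 32.8), against 3.90% of other summits near a TSS (interval 3.37 to 4.49). The 5 were the strongest summits of UQCR-Q, UQCR-C2, COX5B and ATPsynD and the second summit of ND-15. Within 200 bp they were 10 of 32 (31.25%, interval 16.1 to 50.01), against 6.35%. Member and other summits were not matched on distance from the TSS. The strongest summit lay within 100 bp of a TSS in 50% of members and 30.8% of other genes with a summit. The part of distance in the motif shares was not tested. The DRE, TATCGATA, lay within 100 bp of 2 member summits, those of ND-15 and UQCR-14, and the nuclear respiratory gene element, searched as TTACGTAA, TTATATAA and TTACATAA, at 2, those of ND-SGDH and ND-MNLL. The shares of other summits near a TSS were 4.26% for the DRE and 2.64% for the respiratory element. Within 200 bp the DRE was at 5 of 32 member summits (15.6%, interval 5.28 to 32.8), against 6.52%, and the respiratory element at 6 of 32 (18.75%, interval 7.21 to 36.4), against 5.97%. The 32 summits lie at 22 members, and windows at the same gene can overlap. Intervals on the 32, here and for CATTCC above, treat them as independent and may be too narrow. Over the strongest summit of each member, GGTCACAC lay within 200 bp of 8 of 22 (36.4%, interval 17.2 to 59.3). The DRE and the respiratory element each lay at 4 of 22 (18.2%, interval 5.19 to 40.3), which includes both shares of other summits. CACGTG, the E-box bound by Myc, was at 0 of the 32, which allows up to 10.9% by the exact interval, against 2.94%, and at 0 within 200 bp, against 5.97%.

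The same letters were counted in promoters, the 250 bp before to 50 bp after the most upstream TSS, without regard to peaks. GGTCACAC was in 15 of 80 member promoters (18.75%, interval 10.9 to 29.0), against 7.70% of the promoters of all 13945 genes. It was in 7 of 22 members with a summit (31.8%) and 8 of 58 without (13.8%), against 11.3% and 6.04% of other genes with and without a summit. It was in 14 of the 59 members that are not duplicates (23.7%) and in 1 of the 21 duplicates. CATTCC was in 6 member promoters (7.50%) against 10.9% of all promoters, the DRE in 9 (11.25%) against 9.36%, and the respiratory element in 5 (6.25%) against 5.18%. No duplicate promoter held the DRE.

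Both families of ribosomal protein genes, counted by the same rule, stood further from genes of their size than the respiratory genes did. Of 88 cytoplasmic ribosomal protein genes, 43 were called (48.9%, interval 38.1 to 59.8), against 26.9% of other genes of like length and TSS number. Of 73 mitochondrial ribosomal protein genes, 26 had one (35.6%, interval 24.7 to 47.7), against 17.5%. Of 48 proteasome subunit genes, 10 had one (20.8%, interval 10.5 to 35.0), against 23.8%. The excess over genes of like size was 0.695 points for the respiratory genes, against 21.9 and 18.1 points for the cytoplasmic and mitochondrial ribosomal protein genes and −2.95 points for proteasome genes. For the respiratory genes without duplicates it was 6.20 points, with 35.6% called against 29.4%.

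Genes of the pathway with other symbols were counted by the same rule. Among 17 further subunits and electron carriers, 7 had an IDR summit (41.2%), against 25.4% of other genes of like length and TSS number. They were cype at rank 679 and levy at 2606, small subunits of complex IV, the cytochrome c genes Cyt-c-d at 1779 and Cyt-c-p at 3248, the Rieske protein gene RFeSP at 5605, Cyt-c1L at 8701 and blw, the catalytic-head subunit alpha of complex V, at 10508. The 6 Sdh genes of complex II had no IDR summit, and no share of other genes was computed for this subset. SdhC had weaker summits at ranks 18808, 9215 and 10194 of replicates 1, 2 and 3, and SdhD at 12776, 12834 and 14970. SdhB had summits at ranks 18490 and 27470 of replicates 2 and 3, and SdhA at 8577 of replicate 2 alone. SdhAL and SdhBL had none in any replicate. Of 7 assembly factors, Cox17, a copper chaperone of complex IV, was the only one called, at rank 3861, which is 14.3%, against 19.4% of other genes of like length and TSS number. CIA30 had a summit at rank 928 of replicate 2 and none in the other replicates.

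Of 14 citric acid cycle and pyruvate dehydrogenase genes, 8 had a summit (57.1%), against 44.8% of other genes of like length and TSS number, and Ogdh at rank 711, Pdhb at 838 and Idh3g at 1072 led them. The Fum1 summit at 1465 is the one counted for ND-ASHI. Of 16 regulators of mitochondrial biogenesis and of mitochondrial DNA, 7 had a summit (43.75%), against 28.6%. ewg, the fly homologue of NRF-1, ranked 848 with 990, 705 and 945 in replicates 1, 2 and 3, and mTerf3, mtDNA-helicase, mtSSB, Myc, ERR and mtTFB1 ranked 1479 to 9745. TFAM, which packages mitochondrial DNA, and PolrMT, its RNA polymerase, had summits in replicate 2 alone, at ranks 4089 and 3939.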

How the data were processed

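The data were narrowPeak lists of 3 biological replicates, a pooled list and an IDR list on dm6, each set against a control alignment per the file headers. The authors deposited a signal value per peak, whose scale differs between lists, so it served only to rank peaks within a list. The deposited −log10 q value was 4.38 for every IDR peak and ordered none of them, and the p-value column was not used. The deposited summit offset (an other value, in bp) gave the summit position. Which aligner, caller and IDR threshold were applied is not given in the sources used here. Read depth is unknown, so no counting interval was put on signal values, and exact Clopper-Pearson intervals on shares cover gene counts only.

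TSSs of protein-coding genes came from Ensembl release 115 (BDGP6.54, the same assembly), positions are 1-based, and sequences came from the RefSeq Release 6 genome. A replicate summit within 100 bp counted as the same summit. Other genes were weighted to the members' counts over 5 classes of TSS number by 10 of gene length, with 19 classes holding members and the smallest holding 2 other genes. No test was made, because there is a single group. The labels call the replicates biological, and the spread between them is that of these samples. The members and lists were chosen with earlier results of these data known. ND-MNLL, whose final L belongs to the name of the bovine subunit, was not counted as a duplicate. Values in full are given for the 4 members of each complex with the strongest summit and for any in the first 10% of the IDR list. Other members are given by name and range. Of the listed genes of the pathway, Ecsit and Nc73EF were not matched in the annotation. Scripts were run with pandas 2.3.3 and numpy 2.4.6 under Python 3.11.15, with intervals from scipy 1.17.1 and figures from matplotlib 3.10.9, and were tested on simulated data.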

Additional observations from a re-analysis of the deposited data

How the results depend on the processing

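The count of 22 members was within 1.5 times under 12 of 13 alternatives, from 18 to 33, and was 11 with IDR peaks at or above the median signal. The difference from other genes of like length and TSS number, 0.695 points, moved by more than its spread between replicates under 5 of 16. It was 3.18 points with nearest TSSs only, −3.10 with peaks at or above the median signal, −2.23 in replicate 1 alone, −2.99 without weighting and 6.20 without duplicates. The members found in all 3 replicates, 21, ranged from 15 to 22 over 6 alternatives. The share of member summits with CATTCC, 12.5%, was 6.25% within 50 bp, 15.6% within 200 bp and 9.09% over strongest summits only. The causes of these changes were not tested. The count from the whole pooled list was added after the data were seen. No paired analysis was possible because there is a single group of samples. Unknown read depth limits what the absence of a summit means, and with 9 to 40 genes in a complex the intervals are wide.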
